A study of Mus musculus with 6 samples.

Results

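A set of 10 long non-coding RNAs that stay largely in the nucleus or come from imprinted regions was followed in sorted neuronal nuclei of the mouse medial prefrontal cortex (mPFC). They were picked by gene symbol, as Malat1, Neat1, Miat, Meg3, Rian, Mirg, Snhg11, Snhg14, Peg13 and Kcnq1ot1, and all 10 had a row among the 24421 genes of the count table. The study compared Foxp2-Cre mice in a CFA condition (complete Freund's adjuvant, which causes local inflammation and lasting pain) with saline controls. Both groups had received bilateral mPFC injections of an AAV for KASH-GFP, a fluorescent protein tethered to the nuclear envelope, 4 weeks before collection, and both carried the same Cre driver. Each group had 3 libraries of polyadenylated RNA from 10000 sorted nuclei, labelled as Foxp2 positive neurons. The labels give neither the animals behind a library, nor their age, nor the time from CFA to collection, so p-values reflect library-to-library spread only, part of which may be technical.

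Long non-coding RNAs act without being translated, and many remain at their site of transcription or in nuclear bodies. Malat1 gathers in nuclear speckles rich in splicing factors, Neat1 is the scaffold of paraspeckles, and Miat (also called Gomafu) forms its own nuclear domain in neurons. Meg3, Rian and Mirg are expressed from the maternal chromosome of the Dlk1-Dio3 imprinted domain, where they host small nucleolar RNAs and a large microRNA cluster. Snhg14 is the paternally expressed host transcript that runs antisense towards Ube3a, Kcnq1ot1 is the paternally expressed RNA that silences neighbours in the Kcnq1 domain, Peg13 is a paternally expressed RNA inside Trappc9, and Snhg11 is an abundant neuronal host transcript of small nucleolar RNAs.

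Total counts ran from 9673038 to 11850741 per library. Saline replicate 3 stood apart from the other saline libraries, with chi-square statistics over their degrees of freedom of 43.3 and 45.9 against them, where the other saline pair gave 19.7 and pairs of CFA libraries gave 16.4 to 23.2. It was closer to CFA replicate 1 (22.1) than to CFA replicates 2 and 3 (32.9 and 38.6), and CFA replicate 1 was at 27 and 24.5 against saline replicates 1 and 2. In that library the 10 RNAs took 4.74% of all counts, against 2.19% to 3.27% in the other 5 libraries. The glutamatergic marker Slc17a7 was at 2280 ± 357 CPM (counts scaled to a library of fixed size after TMM normalisation, mean ± SD, n = 3) with CFA against 2140 ± 177 CPM with saline, and Foxp2 was at 29.2 ± 5.50 and 33.8 ± 8.61 CPM. Gad1, which makes the inhibitory transmitter GABA, was at 64.9 ± 18.8 and 60.2 ± 12.4 CPM. Its partner gene Gad2 was at 22.3 ± 8.57 and 19 ± 6.91 CPM. The summed level of 10 inhibitory neuron markers was 155 to 232 CPM in CFA and 158 to 228 CPM in saline libraries. The X-inactivation RNA Xist had no count in 5 of 6 libraries, while the Y-linked genes Ddx3y (69.1 to 113 CPM) and Eif2s3y (157 to 255 CPM, both chosen after their values were seen) were present in every library.

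Start-site windows from RefSeq (GRCm38.p6, 250 bases before to 50 after the start) were found for 8 of the 10 genes, all but Neat1 and Peg13. For Meg3, which had 2 windows, the one at the start of the counted gene model is shown. Windows of the 3 most abundant RNAs are shown as examples. These 3 are among the 9 of the 10 RNAs that were highest in saline replicate 3. No link between motifs and levels was tested. Capitals mark the cAMP response element TGACGTCA, its core TGACG or CGTCA, and the CCAAT box CCAAT or ATTGG. Each motif was searched on both strands, and the full element holds the core on either strand.
Meg3, chr12:109540746-109541045, plus strand: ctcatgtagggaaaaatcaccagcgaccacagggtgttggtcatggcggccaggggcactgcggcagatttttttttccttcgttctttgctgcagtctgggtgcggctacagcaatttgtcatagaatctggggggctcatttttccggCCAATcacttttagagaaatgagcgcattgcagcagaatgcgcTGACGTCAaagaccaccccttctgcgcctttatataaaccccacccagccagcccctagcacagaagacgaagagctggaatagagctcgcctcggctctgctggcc
Malat1, chr19:5802623-5802922, minus strand: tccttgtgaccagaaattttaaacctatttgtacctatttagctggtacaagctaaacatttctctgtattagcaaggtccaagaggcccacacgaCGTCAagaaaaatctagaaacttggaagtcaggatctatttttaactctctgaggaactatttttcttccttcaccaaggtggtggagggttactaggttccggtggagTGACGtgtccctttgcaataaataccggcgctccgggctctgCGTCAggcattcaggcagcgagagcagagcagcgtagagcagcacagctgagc
Snhg11, chr2:158375463-158375762, plus strand: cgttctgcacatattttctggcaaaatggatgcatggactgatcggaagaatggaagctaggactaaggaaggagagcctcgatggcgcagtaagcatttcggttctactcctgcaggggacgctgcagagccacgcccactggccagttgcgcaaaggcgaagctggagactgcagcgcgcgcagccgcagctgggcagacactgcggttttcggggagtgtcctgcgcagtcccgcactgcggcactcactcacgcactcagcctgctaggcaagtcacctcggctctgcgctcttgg
The Meg3 window held 1 full element, which 1.79% of 32851 windows of this length in the table held. The Malat1 window held 3 cores, where 20.8% of all windows held at least 1 core, and the Snhg11 window held none of these motifs. CCAAT boxes were in 37.4% of all windows, and the Meg3 window shown held 1. Of the windows not shown, that of Kcnq1ot1 held 1 core and 3 CCAAT boxes, that of Snhg14 held 2 CCAAT boxes and that of Mirg held 1. The Snhg14 window (chromosome 7, 60450128 to 60450427) is not at the start of the counted row, which lies at 59969577 to 59974431. The Snhg11 window is set on a start downstream of that of its counted row (158375638), which still lies inside the window. The windows of Miat and Rian and the other Meg3 window held none of these motifs.

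Levels of the 10 RNAs spanned a wide range. Malat1 had the highest mean CPM of all 13560 genes tested, Snhg11 was next and Meg3 came after them. Per kb of exon model, Malat1 was at 2490 ± 578 CPM per kb in CFA and 2950 ± 810 in saline libraries. Snhg11 was at 1010 ± 147 and 1100 ± 588, and Meg3 at 297 ± 92.9 and 368 ± 192 CPM per kb. The lowest library of Malat1 was above the highest of Snhg11 (1990 and 1770 CPM per kb), and the lowest of Snhg11 was above the highest of Meg3 (706 and 586 CPM per kb). Peg13 (33.9 to 61.3) and Miat (21.6 to 74.1 CPM per kb) overlapped and kept no fixed order, with Peg13 above Miat in 4 of 6 libraries. Rian (12.7 to 35.6) and Mirg (8.42 to 14.9 CPM per kb) also overlapped, with Rian above Mirg in 5 of 6 libraries. The ranges of Miat and Rian, of Mirg and Snhg14 (2.19 to 8.73), and of Snhg14 and Kcnq1ot1 (0.83 to 3.38 CPM per kb) overlapped as well, but the first of each pair was above the second in 6 of 6 libraries. Neat1 was lowest, at 0.0732 to 0.815 CPM per kb over a model of 20771 bases. How much of that model polyadenylated RNA covers was not tested, so its level per kb may be too low.

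In the comparison of CFA with saline, which asks how these transcripts differ between the pain and control conditions, 0 of the 10 RNAs passed the test. Of 13560 genes in the test, 0 (0%) passed at 0.05 after adjustment by edgeR's quasi-likelihood F-test, and each of the 10 RNAs had an adjusted p of 1. Of the 10, 9 had a negative log2 fold change (CFA minus saline), and Peg13 was the exception. Their median was -0.28, beside -0.0011 over all tested genes, 50.2% of which were negative. At an unadjusted p under 0.05 there were 2 of the 10, Snhg14 and Kcnq1ot1, both lower in CFA, where 3.22% of all tested genes (437) reached that p, 1.87% with lower and 1.35% with higher values in CFA. The groups did not overlap for 1 of the 10, Snhg14, against 7.51% of all tested genes (3.97% lower and 3.55% higher in CFA). Without saline replicate 3 the median of the 10 RNAs was 0.094 and 4 were negative, with 0 called. In bulk nuclei, fewer cells that carry an RNA and less RNA per cell cannot be told apart.

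**Figure D1:**
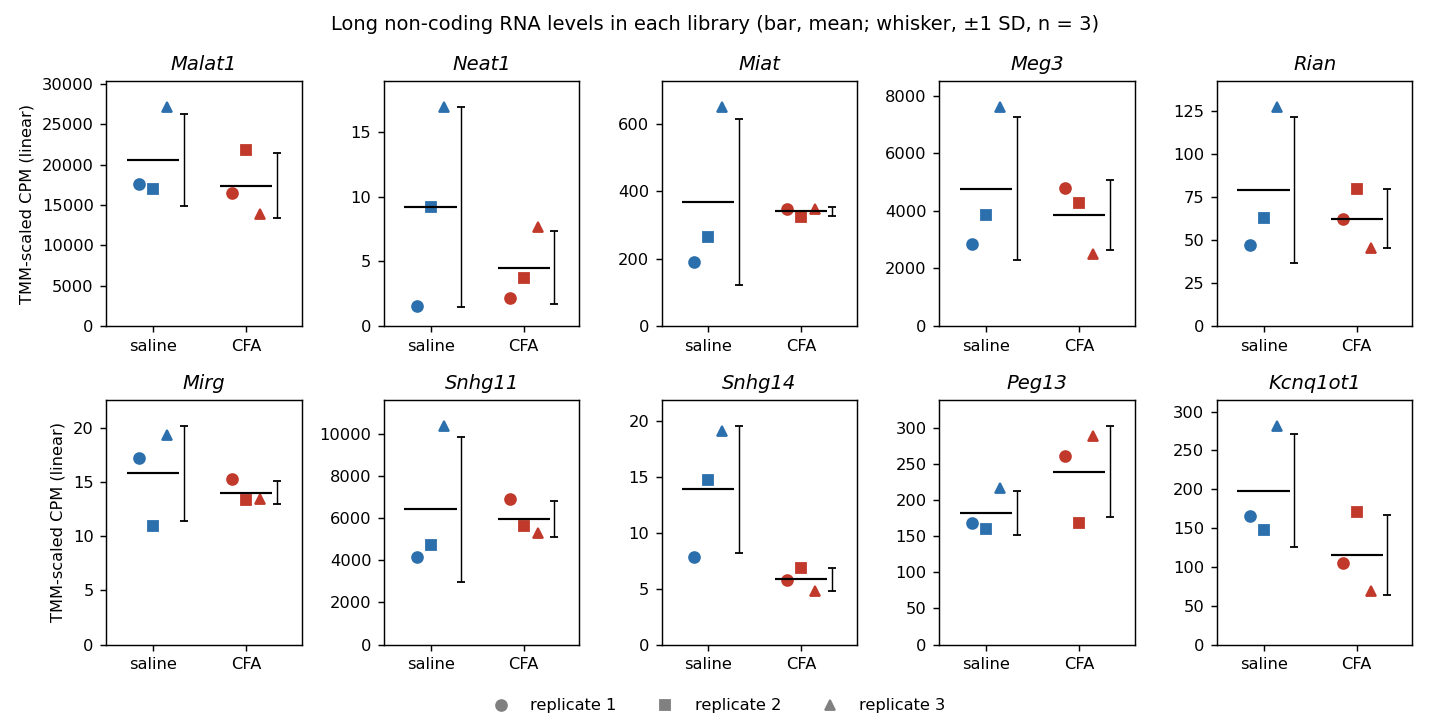
TMM-scaled CPM (linear axis from 0) of each of the 10 RNAs in the saline (blue) and CFA (red) libraries, with symbols for replicates, bars for the mean and whiskers for ±1 SD (n = 3). Saline replicate 3 is the highest point for 9 RNAs, and Snhg14 alone shows all CFA libraries below all saline libraries.

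Among the RNAs of nuclear bodies, Malat1 (ENSMUSG00000092341.3, chromosome 19, 5795690 to 5802671, mm10, minus strand, a single exon) had the smallest relative spread in saline libraries. It was at 16440, 21810 and 13910 CPM in CFA replicates 1 to 3 and at 17640, 17010 and 27110 CPM in saline replicates 1 to 3. Saline replicate 3 was the highest and CFA replicate 3 the lowest, and the groups overlapped. Its log2 fold change was -0.24 ± 0.22 (SE), with an unadjusted p of 0.29 by edgeR's quasi-likelihood F-test. Without saline replicate 3 it was 0.0056.

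Neat1 lies 22.0 kb from Malat1 on the same strand (chromosome 19, 5824710 to 5845480) and was scarce in these libraries of polyadenylated RNA. Its counts were 26, 42 and 80 in CFA and 17, 99 and 167 in saline libraries, or 2.16, 3.70 and 7.69 CPM against 1.52, 9.18 and 16.9 CPM. Both the lowest and the highest values were in saline libraries. With all libraries the log2 fold change was -1.03 ± 0.67, and it was -0.25 without saline replicate 3 and -1.65 without CFA replicate 3. Neat1 per Malat1, as a percentage of levels per kb, ranged 7.24-fold between libraries, from 0.0029% to 0.021%. Neat1 is also expressed in glia. The summed level of 10 astrocyte markers was 250 to 349 CPM in CFA and 221 to 230 CPM in saline libraries, without overlap. Of these 10, 6 were positive and 4 negative. An unadjusted p under 0.05 (edgeR's quasi-likelihood F-test) was reached by 3, all higher in CFA, against 1.35% of all tested genes. The sum of 10 microglia markers was 101 to 164 and 84.0 to 130 CPM, with overlap and with Itgam at 0 in at least 1 library. The part of these cells in the Neat1 values was not tested.

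Miat (chromosome 5, 112213228 to 112228948, minus strand) showed the largest contrast in spread. The CFA libraries were at 347, 325 and 348 CPM, a coefficient of variation (CV) of 3.89%, and the saline libraries at 189, 265 and 649 CPM, a CV of 67.1%. All CFA libraries therefore lay between saline replicates 2 and 3. The log2 fold change was -0.11 ± 0.33 with all libraries. It was 0.58 ± 0.17 without saline replicate 3, with an unadjusted p of 0.00471 and an adjusted p of 0.498 by edgeR's quasi-likelihood F-test. In that setting 6.75% of all tested genes had an unadjusted p under 0.05.

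In the Dlk1-Dio3 domain, Meg3 and Rian were high and low in nearly the same libraries. Meg3 (chromosome 12, 109540996 to 109571729, plus strand) was at 4789, 4274 and 2496 CPM with CFA against 2863, 3865 and 7595 CPM with saline. Rian begins 32.2 kb downstream (109603945 to 109661711) and was at 62.4, 79.8 and 45.6 CPM with CFA against 47.4, 63.0 and 127 CPM with saline. For both, saline replicate 3 was highest and CFA replicate 3 lowest, and the groups overlapped. Log2 fold changes were -0.31 ± 0.31 for Meg3 and -0.34 ± 0.31 for Rian with all libraries, and 0.20 and 0.18 without saline replicate 3. Per kb, Rian was at 6.0%, 5.90% and 6.07% of Meg3 in the saline libraries, although the level of Meg3 ranged 2.65-fold between them. In CFA libraries the share was 4.72%, 6.76% and 6.61%.

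Mirg, the microRNA host 73.3 kb beyond Rian (109734981 to 109749457), did not keep to that proportion. It was at 15.3, 13.4 and 13.5 CPM with CFA against 17.3, 10.9 and 19.4 CPM with saline, from counts of 118 to 193. CFA minus saline, the log2 fold change was -0.17 ± 0.29. Per kb, Mirg ranged from 2.54% of Meg3 in saline replicate 3 to 6.02% in saline replicate 1. Its range over the 6 libraries was 1.77-fold, against 3.04-fold for Meg3 and 2.80-fold for Rian.

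Reads were also assigned to short intervals of small RNAs inside the introns of these hosts. The library kit captures long polyadenylated RNA, so such reads do not measure mature microRNAs. Inside Rian introns 10 such intervals, 7 of them not microRNAs, summed to 10.2, 14.7 and 6.83 CPM with CFA against 14.4, 10.3 and 27.4 CPM with saline. Inside Mirg introns 7 microRNA intervals summed to 5.49, 4.76 and 3.65 CPM with CFA against 4.83, 2.41 and 8.61 CPM with saline. Both sums were highest in saline replicate 3, and the groups overlapped. The 4 Mirg intervals with at least 40 reads over all libraries were Mir154 (47), Mir496a (59), Mir377 (88) and Mir3072 (100). Their mature sequences, from RefSeq (GRCm38.p6), show which microRNAs these intron reads cover. Capitals mark the seed, bases 2 to 8, and no seed was shared among them.
mmu-miR-154-5p: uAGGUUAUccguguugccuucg
mmu-miR-154-3p: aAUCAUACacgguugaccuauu
mmu-miR-496a-5p: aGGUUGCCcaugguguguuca
mmu-miR-496a-3p: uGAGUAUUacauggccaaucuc
mmu-miR-377-5p: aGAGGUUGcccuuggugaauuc
mmu-miR-377-3p: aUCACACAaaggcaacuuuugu
mmu-miR-3072-5p: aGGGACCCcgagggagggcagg
mmu-miR-3072-3p: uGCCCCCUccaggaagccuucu

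**Figure D2:**
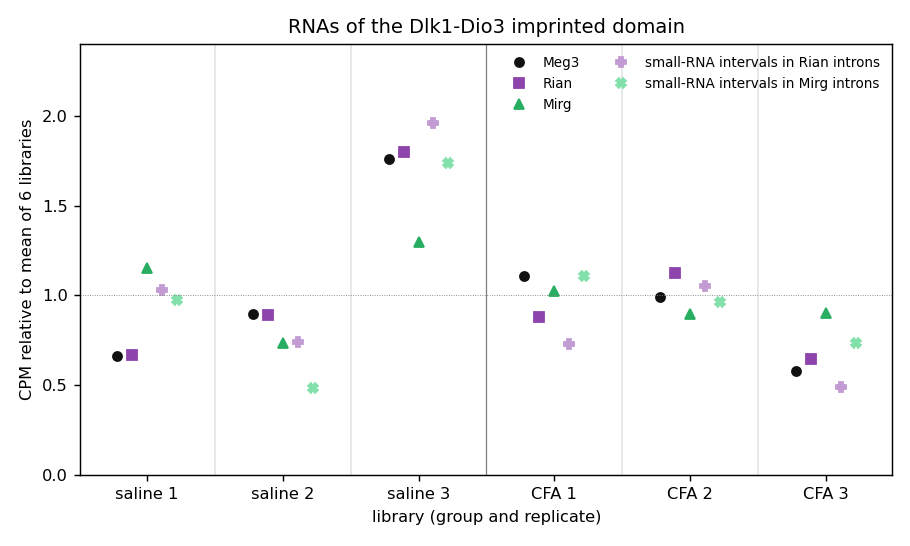
CPM relative to the mean of the 6 libraries (linear axis) for Meg3, Rian, Mirg and the summed small-RNA intervals in Rian and Mirg introns, by library. All 5 series are highest in saline replicate 3, where Mirg departs least from its mean.

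The other genes of the Dlk1-Dio3 domain gave few differences. Of 5 tested coding genes in or beside it, 0 were called. Wdr25, with the smallest p of them, was at 9.44 ± 1.33 CPM with CFA against 4.78 ± 1.7 CPM with saline. Its unadjusted p was 0.0289 by edgeR's quasi-likelihood F-test, where 3.22% of all tested genes had one under 0.05. The groups did not overlap for 1 of the 5, Wdr25, against 7.51% of all tested genes. Begain, at 80.3 ± 11.4 and 67.2 ± 17 CPM, overlapped between groups. Rtl1, the retrotransposon-derived gene of the domain (chosen after its values were seen), was at 3.06 ± 1.05 and 3.79 ± 1.57 CPM. The paternally expressed ligand gene Dlk1 (chosen after its values were seen) was near 0, between 0 and 2.23 CPM.

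The small nucleolar RNA hosts differed from each other. Snhg11 (chromosome 2, 158375638 to 158386145, plus strand, annotated as protein coding in GENCODE M21) was at 6924, 5620 and 5301 CPM with CFA against 4138, 4739 and 10390 CPM with saline. As with Miat, the CFA libraries lay between saline replicates 2 and 3. The log2 fold change was -0.11 ± 0.28, and 0.42 ± 0.15 without saline replicate 3, with an unadjusted p of 0.0128 and an adjusted p of 0.579 by edgeR's quasi-likelihood F-test. In that setting 6.75% of all tested genes had an unadjusted p under 0.05.

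Snhg14 was lower in every CFA library than in every saline library. It was at 5.82, 6.88 and 4.81 CPM in CFA, from counts of 70, 78 and 50, and at 7.87, 14.7 and 19.2 CPM in saline libraries, from counts of 88, 159 and 189. Saline replicate 1 was close to the CFA libraries. The log2 fold change was -1.25 ± 0.38, with an unadjusted p of 0.00487 and an adjusted p of 1 by edgeR's quasi-likelihood F-test. It stayed between -0.95 and -1.54 when single libraries were left out. The counted row holds 3 exons (chromosome 7, 59969577 to 59974431, minus strand), while GENCODE M21 places Snhg14 at 59307924 to 59975759, so this value covers only part of that span.

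Neighbours of Snhg14 had negative log2 fold changes in 5 of 5 tested cases, where 50.2% of all tested genes were negative. Their median was -0.67 and 0 were called. The groups did not overlap for 2 of the 5, Ube3a and the scarce Snrpn, against 7.51% of all tested genes. Ube3a, the ubiquitin ligase gene that Snhg14 opposes, was at 185 ± 31.0 CPM with CFA against 226 ± 13.6 CPM with saline without overlap (chosen after its values were seen, log2 fold change -0.28 ± 0.18). Magel2, a paternally expressed ubiquitin ligase regulator, was at 7.90 ± 1.37 and 13.8 ± 7.99 CPM, and the flippase gene Atp10a at 7.04 ± 1.11 and 12.2 ± 9.05 CPM. The groups overlapped for both. The non-coding RNA Ipw of the same domain, named after looking at its values, was at 22.8, 14.5 and 10.7 CPM with CFA against 19.7, 17.2 and 38.2 CPM with saline, and the groups overlapped. Snrpn was listed at 0.915 to 2.03 CPM and Snurf at 0, and since both come from a shared transcript their values are uncertain. The log2 fold change of Snrpn was -0.67 ± 0.73, the same as the median above, so that median shares this uncertainty.

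Kcnq1ot1 (chromosome 7, 143213111 to 143296547, minus strand, an unspliced model of 83437 bases) was at 106, 171 and 69.2 CPM with CFA against 165, 148 and 282 CPM with saline. CFA replicate 2 was above saline replicates 1 and 2, so the groups overlapped. For Kcnq1ot1 the log2 fold change was -0.78 ± 0.30, with an unadjusted p of 0.0199 and an adjusted p of 1 by edgeR's quasi-likelihood F-test. Without saline replicate 3 it was -0.44 with an unadjusted p of 0.132, and without CFA replicate 2 it was -1.18. The model lies within Kcnq1 on the opposite strand and shares 121 exon bases with it, and the kits do not mark strand. Kcnq1 itself (chosen after its values were seen) had counts in 1 library, at 0.794 CPM. Of 5 tested neighbours of the Kcnq1 domain 0 were called, with a median of 0.021. The cell cycle inhibitor Cdkn1c was at 12.6 ± 0.850 and 10.2 ± 2.10 CPM, and the tetraspanin Cd81 at 556 ± 59.1 and 588 ± 117 CPM. The groups did not overlap for 1 of the 5 neighbours, Cdkn1c, against 7.51% of all tested genes.

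Peg13 (chromosome 15, 72805600 to 72810324, minus strand) had the opposite direction. It was at 262, 168 and 289 CPM with CFA against 169, 160 and 217 CPM with saline. CFA replicates 1 and 3 were above all saline libraries, and CFA replicate 2 was among them. The log2 fold change was 0.40 ± 0.21 with an unadjusted p of 0.081, and 0.55 with an unadjusted p of 0.0214 without saline replicate 3 (edgeR's quasi-likelihood F-test, adjusted p of 0.656). Without that library 6.75% of all tested genes had an unadjusted p under 0.05. Leaving out other single libraries gave values from 0.25 (without CFA replicate 3) to 0.60 (without CFA replicate 2). Peg13 lies within Trappc9 on the same strand, without shared exon bases, so intron reads of Trappc9 could be counted in it. Trappc9 (chosen after its values were seen) was at 95.4 ± 10.1 and 92.6 ± 10.4 CPM, with its lowest value in saline replicate 3 (80.7 CPM). Of 5 tested genes of the Peg13 domain 0 were called, among them Ago2 at 17.2 ± 5.70 and 23.7 ± 7.58 CPM and the kinase gene Ptk2 at 222 ± 5.33 and 211 ± 7.95 CPM.

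**Figure D3:**
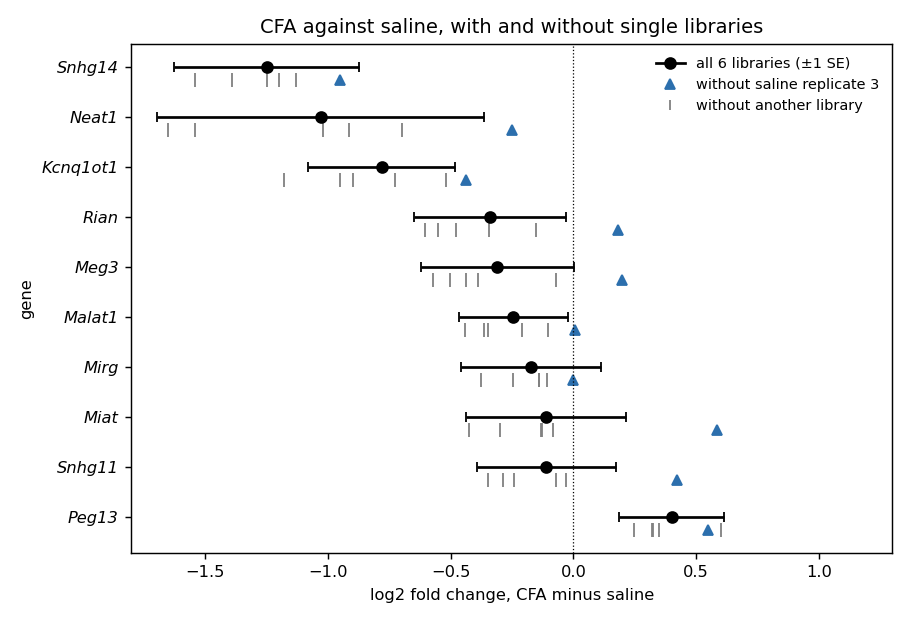
Log2 fold change of each RNA (CFA minus saline) with all 6 libraries (black, ±1 SE), without saline replicate 3 (blue triangle) and without each other library (grey ticks). Leaving out saline replicate 3 takes 5 RNAs across 0, whereas Snhg14, Neat1, Kcnq1ot1 and Mirg stay below 0 and Peg13 stays above it.

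Markers of further cell types were compared in the same libraries, and 0 were called. The summed level of 10 striatal projection neuron markers was 290 to 488 CPM in CFA and 397 to 1020 CPM in saline libraries, so the groups overlapped, with saline replicate 3 lowest of the saline libraries at 397 CPM. Of 9 tested, 9 had a negative log2 fold change and 6 had an unadjusted p under 0.05 by edgeR's quasi-likelihood F-test. Adora2a was at 0 in at least 1 library. Over all tested genes, 50.2% were negative, and 1.87% reached that p with lower and 1.35% with higher values in CFA. Corticothalamic neuron markers, which include Foxp2, summed to 805 to 902 and 781 to 1110 CPM and also overlapped. Of 8 tested, 7 were negative and 1 had an unadjusted p under 0.05, with a median of -0.21. Oligodendrocyte precursor markers summed to 31.8 to 45.6 and 19 to 28.5 CPM without overlap, with Pdgfra, Olig2 and Gpr17 at 0 in at least 1 library. Of 6 tested, 5 were positive, with a median of 0.94, and 2 reached that p, both higher in CFA. The groups did not overlap for 4 of these 6 and for 2 of the 9 striatal markers, against 7.51% of all tested genes. The part of these cells in the values of Snhg14, Kcnq1ot1 and Peg13 was not tested.

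The libraries of a group differed widely in these RNAs. Saline replicate 3 held the highest value of 9 of the 10, where it held the highest value of 23.9% of all tested genes and the lowest of 23.7%. Within saline it was highest for 10 of 10. CFA replicate 3 held the lowest value for 5 of the 10, against 12.9% of all tested genes. The median CV of the 10 RNAs was 24.9% in CFA and 46.5% in saline libraries, beside medians of 16.7% and 22.3% over all tested genes. The CV was larger in saline for 8 of the 10, all but Peg13 and Kcnq1ot1, and for 64.5% of all tested genes. The difference in spread was not tested.

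**Figure D4:**
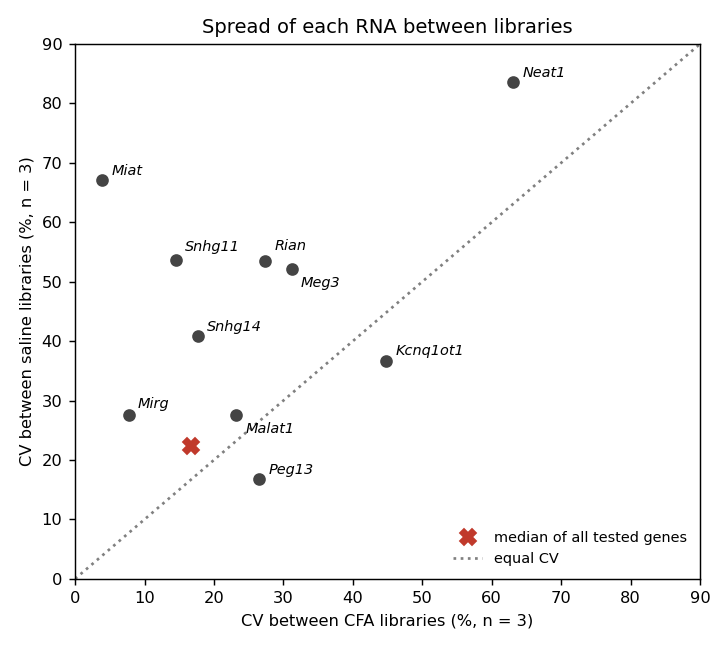
CV of TMM-scaled CPM between the 3 CFA libraries (x axis) and the 3 saline libraries (y axis) for each RNA, in percent, with the median of all tested genes as a cross and equal CVs as a dotted line. Miat, at 3.89% and 67.1%, lies farthest above the line, and Kcnq1ot1 and Peg13 lie below it.

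Transcripts rich in the cytoplasm had their lowest mean in saline replicate 3, where the non-coding RNAs had their highest. The mean log2 CPM of 25 such neuronal transcripts was 9.30 there and 9.59 to 9.79 in the other 5 libraries, while that of the 10 non-coding RNAs was 8.59 there and 7.34 to 7.73 elsewhere. The part of this shift in the values of the 10 RNAs was not tested. A covariate fit is given below, but its covariate stands apart mainly in saline replicate 3. The fit therefore cannot separate this shift from that library. In this list 0 of 25 were called. Nrgn, a calmodulin-binding postsynaptic protein gene, was at 393 CPM in saline replicate 3 and 550 to 809 CPM elsewhere, and the synuclein gene Sncb was at 188 CPM there and 183 to 233 CPM elsewhere. With the level of this list as a covariate, the median log2 fold change of the 10 RNAs was -0.14 in place of -0.28, with 0 called. Meg3 was then at -0.14 ± 0.15 in place of -0.31, Rian at -0.15 ± 0.19 in place of -0.34 and Neat1 at -0.67 ± 0.67 in place of -1.03. Malat1 was at -0.17 ± 0.12 and Mirg at -0.12 ± 0.26, while Miat (0.19 ± 0.16) and Snhg11 (0.093 ± 0.0998) turned positive. Snhg14 was at -1.16 ± 0.34, Kcnq1ot1 at -0.67 ± 0.23 and Peg13 at 0.44 ± 0.19.

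**Figure D5:**
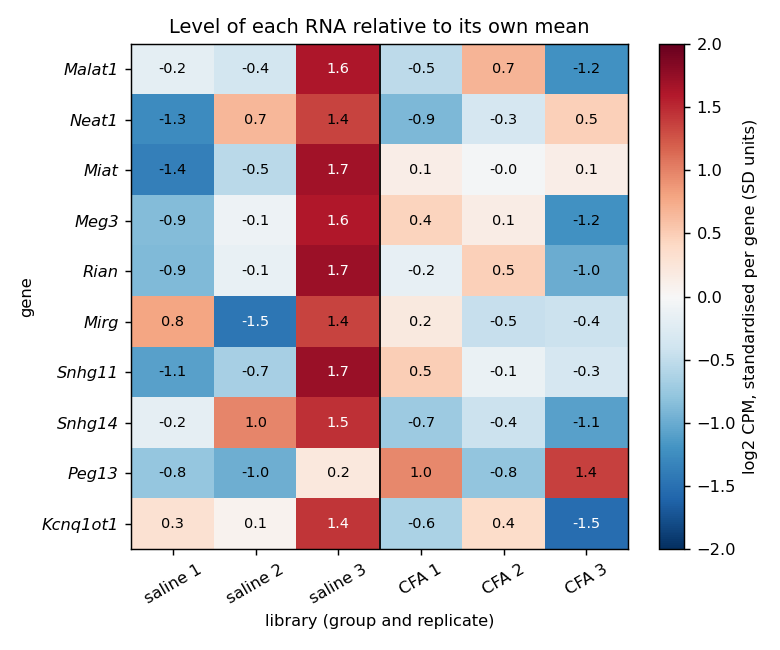
Log2 CPM of each RNA, standardised to its own mean and SD over the 6 libraries (colour and printed value in SD units), with saline libraries left of the line and CFA libraries right of it. Every RNA but Peg13 is highest in saline replicate 3.

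Genes outside the set with the most similar pattern were sought by Pearson r with the mean standardised log2 CPM of the 10 RNAs over the 6 libraries, among 8755 genes whose mean log2 CPM reached 4. The highest were Smg6, an endonuclease gene of nonsense-mediated decay (r = 0.99), the helicase gene Helq (0.987), the chromatin gene Mbtd1 (0.985), the microtubule-associated protein gene Map1a (0.985) and the chromatin gene Ubn2 (0.982). Ubn2 was at 98.6 CPM in saline replicate 3 and 32.4 to 48.1 CPM elsewhere. Among the lowest were Stambp (-0.993), Ruvbl1 (-0.992), the dynactin subunit gene Dctn2 (-0.991) and Slc35b2 (-0.989). Dctn2 was at 162 CPM in saline replicate 3 and 224 to 244 CPM elsewhere. These are descriptions over 6 points that share saline replicate 3 as an extreme, and 2.07% of the genes searched had an r above 0.9. The 10 RNAs did not all follow their own mean. The r of each with the mean of the others ran from -0.057 for Peg13 to 0.93 for Rian, with Mirg at 0.47 and Neat1 at 0.54.

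Protein partners of nuclear bodies and other RNAs of these classes gave 0 calls. Among 14 paraspeckle proteins, 0 reached an unadjusted p under 0.05 and the median was -0.058, with Rbm14 at 42.5 ± 4.78 CPM with CFA against 32.8 ± 1.46 CPM with saline and Tardbp at 125 ± 20.1 and 146 ± 28.5 CPM. Of 15 nuclear speckle and splicing proteins, 2 reached that p, both lower in CFA. Over all tested genes, 1.87% reached it with lower and 1.35% with higher values in CFA (edgeR's quasi-likelihood F-test). The groups did not overlap for 2 of the 14 paraspeckle proteins, Rbm14 among them, and for 2 of these 15, against 7.51% of all tested genes. Qk, a splicing regulator, was at 26.5 ± 5.59 and 61.4 ± 18.1 CPM (log2 fold change -1.21 ± 0.25, adjusted p of 0.91 by edgeR's quasi-likelihood F-test), and the speckle protein gene Srrm1 was at 94.7 ± 8.91 and 123 ± 12.4 CPM. Of 22 tested imprinted genes elsewhere, Nnat alone reached an unadjusted p under 0.05. This small membrane proteolipid gene was at 87.4, 57.0 and 43.3 CPM with CFA against 125, 126 and 91.7 CPM with saline, so the groups did not overlap, and the log2 fold change was -0.87 ± 0.24. Grb10, an insulin receptor adaptor gene, was at 33 ± 8.56 and 44.7 ± 15.9 CPM. Of 29 other tested long non-coding RNAs, 13 were negative, with a median of 0.019. Among them A230057D06Rik was at 13.2 ± 1.86 and 24 ± 4.12 CPM without overlap (unadjusted p of 0.00443 by edgeR's quasi-likelihood F-test), and 1700020I14Rik was at 28.7 ± 7.01 and 36.1 ± 7.34 CPM.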

How the data were processed

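The authors deposited raw counts per gene, 1 column per library, with exon intervals and exon length per gene, per the file headers. Read processing used featureCounts 2.0.1, HISAT2 2.2.1, Trim Galore, edgeR 3.32.1 and SAMtools 1.13 with build mm10, per the submitters' processing notes, which give no order. Strand and multi-mapping settings were not given in the sources used here. Groups and replicate numbers were read from the sample titles.

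Counts were tested with edgeR 4.0.16 (R 4.3.3): TMM scaling, the default filterByExpr filter, the quasi-likelihood test with treatment as the only term, and Benjamini-Hochberg adjustment over 13560 genes at 0.05. All 10 members passed the filter. Standard errors come from the F statistic. Log2 CPM used a prior count of 2. The script was tested on simulated data. The members and lists were chosen with earlier results of these data known. Named genes were the members, 2 genes with the smallest p per list, Foxp2, Slc17a7, Gad1, Gad2 and Xist, and the 5 most and 5 least similar genes, of which 1 is not reported here. Of 50 other non-coding RNAs listed, 37 were in the table. GENCODE M21 and RefSeq (GRCm38) share the build of the counts. No pair of libraries was alike within sampling noise. No batch is labelled.

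Alternatives were RLE and library-size scaling, scaling without the members, other low-count filters, DESeq2 1.42.0, limma-voom 3.58.1, a replicate block, a covariate and leaving out each library.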

Additional observations from a re-analysis of the deposited data

How the results depend on the processing

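Over all genes 0 were called in edgeR's quasi-likelihood test (437 at an unadjusted p under 0.05), and 9 were without a low-count filter, 5 in DESeq2, 6 with the replicate block, 0 in limma-voom and 0 to 5 when single libraries were left out (5 without saline replicate 3). None of these settings called any of the 10 RNAs. The number of RNAs without overlap ranged from 1 to 4 when single libraries were left out: 4 without CFA replicate 2, 3 without saline replicate 3 and 2 without saline replicate 1 or 2, where 16.4%, 22.5%, 17.4% and 17.2% of all tested genes did not overlap. The median log2 fold change of the 10 RNAs ranged from -0.50 without saline replicate 1 to 0.094 without saline replicate 3.

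Snhg14, Kcnq1ot1, Neat1, Mirg and Peg13 kept their direction in all 15 alternatives, though Mirg was at -0.0028 without saline replicate 3. Miat and Snhg11 turned positive in limma-voom (0.092 and 0.0042), with the replicate block (0.097 and 0.013) and with the cytoplasm-rich transcript level as a covariate (0.19 and 0.093); the cause was not tested. Leaving out single libraries moved Malat1 from -0.44 to 0.0056, Miat from -0.43 to 0.58, Meg3 from -0.57 to 0.20, Rian from -0.60 to 0.18 and Snhg11 from -0.35 to 0.42, with each upper value found without saline replicate 3. Same-numbered libraries of the 2 groups did not deviate together (r = -0.079, 0.025 and -0.069 across genes, which are not independent replicates), and CFA replicate 1 correlated best with saline replicate 3 (0.146), so the replicate number was not used for pairing. Counts under 200 for Neat1, Mirg and Snhg14 limit the precision of those 3 RNAs.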
